A study of Homo sapiens with 18 samples.

Results

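The genes described here are 35 human genes of the lysosome and of autophagy, taken from a list of symbols out of 60609 gene identifiers in the count files, and they were followed through all 18 libraries of the study. They fall into 7 roles, which are lysosome membrane proteins (LAMP1, LAMP2, NPC1, MCOLN1, GPNMB), proteases (CTSA, CTSB, CTSC, CTSD, CTSH, CTSL, CTSS, CTSZ, LGMN), glycosidases (HEXA, GLA, GUSB, NEU1, GAA), lipid transfer and activator proteins (NPC2, PSAP), the proton pump (ATP6V0D1, ATP6V1A, ATP6V1B2, ATP6V1H, ATP6AP1), transcription factors of the MiT/TFE family (TFEB, TFE3, MITF) and autophagy proteins (SQSTM1, GABARAPL1, GABARAPL2, MAP1LC3B, ULK1, WIPI1). All 35 matched 1 identifier each, and all 35 passed the filter on low counts, LGMN near its limit. The cells were OCI-AML1, a line of human acute myeloid leukaemia with the genotype given as WT, and they received DMSO, AML874 or SEL120-34A for 8 h or for 24 h, with 3 libraries in each of the 6 groups. SEL120-34A inhibits CDK8 and CDK19, which are kinases bound to the Mediator complex, and DMSO is the solvent control. AML874 is known here only by its code name, and the labels give no dose for either compound, so it is not known whether the doses match.

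The lysosome is the acidic compartment in which cells degrade proteins, glycans and lipids, and autophagy is the pathway that delivers cytoplasm to it inside double-membraned vesicles. The proton pump, a vacuolar ATPase, acidifies its interior, hydrolases such as the cathepsins work there, and membrane proteins shield the wall and move ions and cholesterol across it. Transcription factors of the MiT/TFE family bind a shared promoter motif upstream of many of these genes and are held in the cytoplasm by the kinase complex mTORC1 when nutrients are plentiful.

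Libraries held 98975944 to 142496541 counts in genes, so a gene with 0 counts could still be present at up to 0.0211 to 0.0303 CPM (counts scaled to a common library size), a limit that covers counting error only. The blood cell genes PTPRC, SPI1, CD33 and CSF3R averaged at least 38.1 TPM in every group. TPM is a scale that corrects for transcript length. MPO averaged 2.05 to 15.8 TPM, CD34 0.333 to 3.72 TPM and KIT 0.0567 to 0.203 TPM over the groups. Among monocyte and macrophage genes CD68 averaged 24.4 to 41.2 TPM, CSF1R 5.48 to 11.4 TPM and CD14 at most 0.0833 TPM. ITGAM, MARCO, MSR1, MRC1, CD163, C1QA and C1QB averaged at most 1.2 TPM in any group. A list of 16 genes of B, T, erythroid, megakaryocyte, fibroblast and epithelial cells summed to 1.58 to 2.78 TPM per library. After group means were removed, DMSO 8 h replicate 3, SEL120-34A 8 h replicate 2 and SEL120-34A 24 h replicate 2 stood apart along the first principal component of the remaining variation (24.2% of it), and genes of the hypoxia response were highest in these libraries within their groups. The labels do not say whether replicates were separate cultures, so each p-value measures the spread between these libraries, which may be technical.

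On the length-scaled TPM scale, cathepsins led the list in DMSO at 8 h. CTSZ (cathepsin Z) stood highest at 406 ± 6.85 TPM (SD, n = 3), followed by CTSC (cathepsin C, which activates granule proteases of myeloid cells) at 247 ± 3.73 TPM. CTSD at 156 ± 4.33 TPM and CTSB at 155 ± 4.20 TPM did not differ beyond their spread, nor did LAMP1 at 144 ± 2.14 TPM and PSAP at 143 ± 2.63 TPM. The transcription factors stood low in this order. TFE3 reached 9.69 ± 0.142 TPM, TFEB 9.17 ± 0.485 TPM and MITF 1.69 ± 0.116 TPM. LGMN (legumain, an asparaginyl protease) was last, at 0.213 ± 0.0737 TPM.

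Each compound was first compared with DMSO at the same time, in a series whose title names Mediator kinase inhibition as its subject. A gene was called when its adjusted p was under 0.05 in edgeR's quasi-likelihood test with Benjamini-Hochberg adjustment over 20920 genes. The 2 compounds share their DMSO libraries at each time, so their calls are not independent of each other.

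With AML874 at 8 h, 3 of 35 members were called higher and 22 lower, while 19.7% of all tested genes were called higher and 19.9% lower. The median log2 fold change of the members was -0.13 and that of all genes 0.0023. With SEL120-34A at 8 h, 10 members were called higher and 15 lower, beside 22.4% and 22.6% of all genes, and the median was -0.07 over the members and -0.0011 over all genes. These 8 h counts moved with the scaling. Scaled by library totals without TMM factors, 6 members were higher and 18 lower with AML874, and 11 higher and 9 lower with SEL120-34A, while the share of higher calls among all called genes went from 49.8% to 63.5% and from 49.8% to 66.5%.

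At 24 h, AML874 had 7 members called higher and 13 lower, beside 23.1% and 23.7% of all genes, with a median of -0.04 over the members and 0.0036 over all genes. SEL120-34A had 6 higher and 15 lower at 24 h, beside 19.1% and 18.6% of all genes, with medians of -0.07 and 0.0053. Most of these changes were small. The median size of the change over the members at 24 h was 0.105 log2 units (AML874) and 0.0889 (SEL120-34A), against 0.208 and 0.168 over all genes. The 2 sets were not matched on level, and all genes include many of low count with wider error. These medians therefore do not show that the members respond less. The count higher with AML874 at 24 h was 4 without DMSO 24 h replicate 3. Some markers of blood cells also differed at this time. The summed level of 10 monocyte and macrophage genes, of which 3 reached 1 TPM in each 24 h group and C1QA and C1QB were at 0, was 45.4 to 51.0 TPM with DMSO, 31.1 to 33.5 TPM with AML874 and 32.1 to 36.8 TPM with SEL120-34A. CD68 and CSF1R carried this difference. ITGAM, MARCO and MSR1 averaged 1.02, 0.35 and 0.263 TPM with DMSO and 1.2, 0.647 and 0.62 TPM with AML874. The mean log2 CPM of the list was 0.07 to 0.12 with DMSO, 0.10 to 0.17 with AML874 and 0.01 to 0.11 with SEL120-34A. For CD68 the read counts behind CPM held only 0.141% of the RSEM counts behind TPM, so this mean hardly registers CD68. The summed level of 7 haematopoietic and myeloid genes was 462 to 467, 365 to 371 and 398 to 410 TPM. SPI1 differed most in TPM (means of 224, 178 and 198 TPM). CD33 (75.2, 49.8 and 53.6 TPM), CSF3R (58.4, 38.1 and 42 TPM) and MPO (15.8, 2.05 and 5.24 TPM) were also lower. PTPRC (90.3, 97.3 and 101 TPM), CD34 (0.333, 3.03 and 3.72 TPM) and KIT (0.0567, 0.203 and 0.177 TPM) went the other way. The mean log2 CPM of the list was 4.80 to 4.88, 4.71 to 4.81 and 4.97 to 5.01. The part of either list in the members' changes was not tested.

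**Figure D1:**
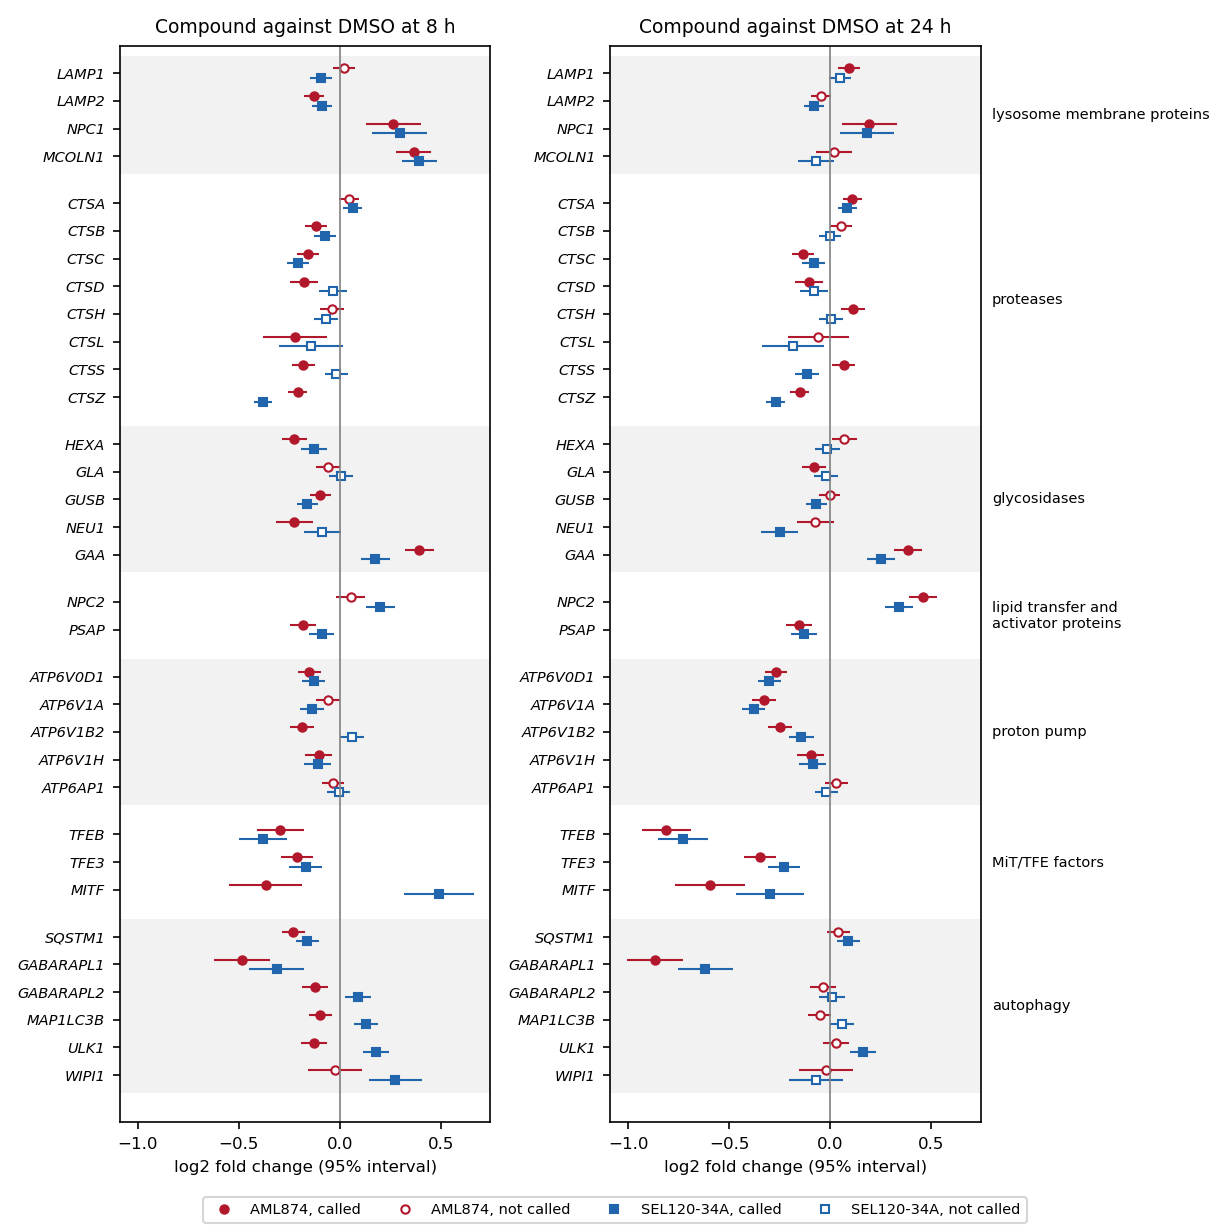
Log2 fold change of 33 members against DMSO at 8 h (left) and 24 h (right), with AML874 as circles, SEL120-34A as squares, filled where called and with 95% intervals as lines; GPNMB and LGMN, whose intervals are far wider, are not drawn. GAA and NPC1 lie to the right of 0 in both panels, MCOLN1 clears 0 only at 8 h, and TFEB and GABARAPL1 lie furthest to the left at 24 h (-0.81 and -0.87 with AML874).

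The MiT/TFE factors held some of the largest changes. TFEB, the member of this family best known for switching on lysosomal genes (chromosome 6, 41683978 to 41736259, minus strand, GRCh38), read 13.3, 14.2 and 14.3 CPM in the DMSO libraries at 8 h, 12.1, 10.1 and 11.8 CPM with AML874 and 10.6, 10.6 and 10.9 CPM with SEL120-34A. At 24 h TFEB read 11.7, 11.7 and 11.1 CPM with DMSO, 6.45, 6.78 and 6.44 CPM with AML874 and 6.66, 7.39 and 6.81 CPM with SEL120-34A. Every treated library lay below every DMSO library of its time, and the gap was wider at 24 h. The log2 change with AML874 was -0.29 ± 0.06 (SE) at 8 h (adjusted p = 8.14e-05) and -0.81 ± 0.06 at 24 h (adjusted p = 1.97e-13). With SEL120-34A it was -0.38 ± 0.06 at 8 h (adjusted p = 1.38e-06) and -0.73 ± 0.06 at 24 h (adjusted p = 4.68e-12). In bulk RNA, fewer cells that express a gene and less of its RNA per cell cannot be told apart, here and in every result that follows.

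TFE3, the related factor on the X chromosome (X, 49028726 to 49043486, minus strand), fell in the same 4 comparisons by less. It read 23.4, 23.9 and 23.0 CPM with DMSO at 8 h, 20.2, 19.6 and 20.9 CPM with AML874 and 20.7, 20.9 and 20.9 CPM with SEL120-34A. The 24 h libraries read 24.3, 22.7 and 23.3 CPM with DMSO, 19.1, 18.0 and 18.2 CPM with AML874 and 19.3, 20.4 and 20.3 CPM with SEL120-34A. No treated library reached its DMSO group. The log2 changes with AML874 were -0.21 ± 0.04 and -0.35 ± 0.04 at 8 h and 24 h (adjusted p = 4.46e-05 and 4.22e-09), and with SEL120-34A -0.17 ± 0.04 and -0.23 ± 0.04 (adjusted p = 0.00064 and 1.50e-05).

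MITF, a factor best known from melanocytes and also present in myeloid cells (chromosome 3, 69739435 to 69968337, plus strand), moved in opposite directions with the compounds at 8 h. It read 5.33, 5.77 and 5.82 CPM with DMSO, 4.62, 4.19 and 4.32 CPM with AML874 and 7.80, 8.03 and 7.96 CPM with SEL120-34A. The 3 groups did not overlap. The log2 change was -0.37 ± 0.09 with AML874 (adjusted p = 0.00108) and 0.49 ± 0.08 with SEL120-34A (adjusted p = 1.42e-05). The 24 h values were 7.97, 6.74 and 6.90 CPM with DMSO, 5.64, 4.06 and 4.56 CPM with AML874 and 5.39, 6.13 and 6.07 CPM with SEL120-34A. Both treated groups were then below DMSO, with log2 changes of -0.60 ± 0.09 (adjusted p = 5.51e-07) and -0.30 ± 0.08 (adjusted p = 0.00473). The call with SEL120-34A at 24 h was lost without DMSO 24 h replicate 1 (log2 change -0.22, adjusted p = 0.0517).

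Promoter stretches of 3 members are shown because they carry CACGTG, the palindromic core of the motif that MiT/TFE factors bind, while their transcripts moved differently. RefSeq windows from 250 bases before to 50 after each start site were found for 26 of the 35 member genes. CACGTG, which reads the same on both strands, was in the windows of 7 of these 26 genes (26.9%; ATP6V0D1, CTSA, CTSD, GAA, LAMP1, MCOLN1 and NEU1) and of 8.77% of 27305 genes. The longer palindrome TCACGTGA, which contains it, was in windows of 5 of 26 member genes (19.2%) and of 1.18% of all genes. The lines below give the 200 bases before the start site, 5′ to 3′, with CACGTG in capitals, from RefSeq on GRCh38.p14. MCOLN1 is at chr19:7522424-7522623 on the plus strand, GAA at chr17:80101381-80101580 on the plus strand and LAMP1 at chr13:113297039-113297238 on the plus strand. The GENCODE 29 model of GAA begins inside its stretch.
MCOLN1: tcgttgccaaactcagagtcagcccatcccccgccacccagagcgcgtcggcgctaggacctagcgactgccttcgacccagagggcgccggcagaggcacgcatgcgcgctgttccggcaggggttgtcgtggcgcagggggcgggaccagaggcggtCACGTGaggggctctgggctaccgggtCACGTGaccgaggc
GAA: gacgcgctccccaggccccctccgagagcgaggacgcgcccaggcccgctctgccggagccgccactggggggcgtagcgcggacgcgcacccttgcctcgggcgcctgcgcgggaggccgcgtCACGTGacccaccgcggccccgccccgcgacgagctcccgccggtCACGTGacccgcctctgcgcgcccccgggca
LAMP1: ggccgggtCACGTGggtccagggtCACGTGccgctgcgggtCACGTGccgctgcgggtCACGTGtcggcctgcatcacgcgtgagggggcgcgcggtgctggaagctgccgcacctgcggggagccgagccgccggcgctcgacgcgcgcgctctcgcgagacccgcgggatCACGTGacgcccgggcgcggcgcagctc

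MCOLN1 and GAA hold 2 copies each in these stretches, and LAMP1 holds 5. Of the 7 genes with the motif, GAA rose in all 4 comparisons with DMSO and MCOLN1 at 8 h, ATP6V0D1 fell in all 4, and LAMP1 changed by no more than 0.10 log2 units in any of them. The windows of MITF, TFEB, TFE3 and the 6 autophagy members, where one was found, held no copy. A match in letters does not show that a factor binds there, and its absence says only that the letters are not in this window.

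Among the lysosome membrane proteins, MCOLN1 and NPC1 rose. MCOLN1, or mucolipin 1, is a calcium release channel of the lysosome (chromosome 19, 7522626 to 7534009, plus strand). At 8 h it read 22.6, 22.6 and 23.3 CPM with DMSO, 28.0, 30.5 and 29.8 CPM with AML874 and 30.0, 29.6 and 30.3 CPM with SEL120-34A. Its 24 h values were 17.9, 19.1 and 19.1 CPM with DMSO, 19.5, 18.8 and 18.5 CPM with AML874 and 19.1, 16.9 and 17.4 CPM with SEL120-34A. The treated libraries lay above every DMSO library at 8 h and overlapped with DMSO at 24 h, where a call with SEL120-34A (-0.13, adjusted p = 0.0279) appeared only without replicate 1 of that group. The log2 change at 8 h was 0.37 ± 0.04 with AML874 (adjusted p = 9.73e-09) and 0.39 ± 0.04 with SEL120-34A (adjusted p = 1.66e-09). The effect at 24 h was smaller than at 8 h by -0.35 ± 0.06 with AML874 (adjusted p = 4.20e-05) and by -0.47 ± 0.06 with SEL120-34A (adjusted p = 3.18e-07), on the log2 scale.

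NPC1, the membrane protein that exports cholesterol from the lysosome (chromosome 18, 23506184 to 23586898, minus strand), read 63.2, 61.2 and 63.8 CPM with DMSO at 8 h. It read 74.8, 76.8 and 74.4 CPM with AML874 and 76.7, 78.5 and 75.7 CPM with SEL120-34A at that time. The 8 h groups did not overlap with DMSO, and the log2 changes were 0.26 ± 0.06 (adjusted p = 0.00387) and 0.30 ± 0.06 (adjusted p = 0.00152). At 24 h it read 88.3, 75.0 and 74.9 CPM with DMSO, 96.9, 90.2 and 85.3 CPM with AML874 and 89.1, 96.2 and 84.9 CPM with SEL120-34A. The groups overlapped because DMSO replicate 1 was high, and the changes of 0.19 ± 0.06 (adjusted p = 0.02) and 0.18 ± 0.06 (adjusted p = 0.0348) were near the threshold. Without DMSO 24 h replicate 2 the adjusted p was 0.0829 with AML874 and 0.144 with SEL120-34A. Without DMSO 24 h replicate 3 these were 0.0834 and 0.143, without AML874 24 h replicate 1 the first was 0.0886, and without SEL120-34A 24 h replicates 1 or 2 the second was 0.0659 or 0.142. With SEL120-34A it was also 0.0512 to 0.0546 without any of 8 of the 9 libraries of 8 h and 0.231 without the 3 libraries that stand apart. When the model held only the groups compared, the values were 0.147 and 0.168.

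LAMP1 and LAMP2, the abundant glycoproteins of the lysosomal wall, changed little. LAMP2 fell by 0.13 ± 0.03 on the log2 scale with AML874 at 8 h (adjusted p = 6.30e-05), and its other changes lay between -0.09 and -0.05. LAMP1 was 0.09 ± 0.03 higher with AML874 at 24 h (adjusted p = 0.00388) and -0.10 ± 0.03 with SEL120-34A at 8 h (adjusted p = 0.00356). With library totals alone the SEL120-34A calls at 8 h were lost for LAMP1 (-0.03, adjusted p = 0.328) and LAMP2 (-0.02, adjusted p = 0.495), and LAMP1 was called higher with AML874 at 8 h (0.07, adjusted p = 0.022).

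GPNMB, a glycoprotein of melanosomes and of lysosomes in macrophages (chromosome 7, 23235967 to 23275108, plus strand), varied widely within groups. With AML874 at 24 h it read 19.4, 16.9 and 13.2 CPM, above the DMSO libraries at 12.4, 9.85 and 8.15 CPM, but the log2 change of 0.70 ± 0.33 was not called (adjusted p = 0.101). With SEL120-34A at 24 h it read 8.46, 15.8 and 8.50 CPM (adjusted p = 0.871). In 5 of 6 groups the library with the most GPNMB was also the highest in a list of 12 hypoxia response genes. SEL120-34A 24 h replicate 2 stood at a mean log2 CPM of 5.29 over these genes, against 4.82 and 4.92 in the other libraries of its group, and DMSO 8 h replicate 3 at 5.13 against 4.70 and 4.48. The part of hypoxia genes in the level of GPNMB was not tested. Without the 3 libraries that stand apart, GPNMB was called higher with AML874 at 24 h than with DMSO (log2 change 0.70, adjusted p = 0.0212) or SEL120-34A (0.97, adjusted p = 0.0209) and higher with DMSO at 24 h than at 8 h (1.02, adjusted p = 0.013). That setting was chosen after seeing the data, and each library left out held the most GPNMB of its group. Leaving them out lowers those groups and the spread, so these calls give no separate evidence. At 24 h the hypoxia genes stood at 4.76 to 5.07 in the AML874 libraries and 5.06 to 5.34 in the DMSO libraries.

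**Figure D2:**
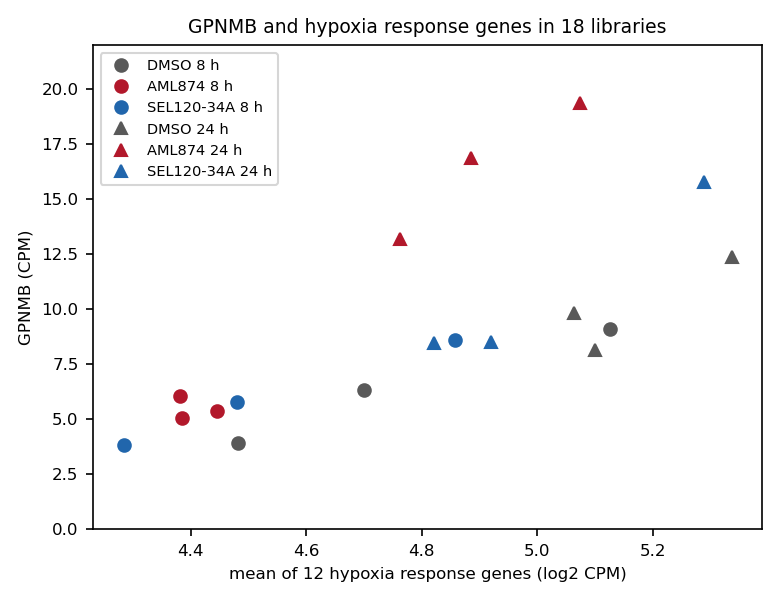
GPNMB in CPM (vertical) against the mean log2 CPM of 12 hypoxia response genes (horizontal) in 18 libraries, 1 point each, circles for 8 h and triangles for 24 h. The 3 AML874 24 h libraries (13.2 to 19.4 CPM) lie above the 3 DMSO 24 h libraries (8.15 to 12.4 CPM), whose hypoxia values are similar or higher.

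Of the 9 proteases, 0 were called higher and 6 lower with AML874 at 8 h, and 1 higher and 3 lower with SEL120-34A. At 24 h the counts were 3 higher and 3 lower with AML874, and 1 higher and 3 lower with SEL120-34A. Over all genes 19.7% were higher and 19.9% lower with AML874 at 8 h, 22.4% and 22.6% with SEL120-34A at 8 h, and 23.1% and 23.7%, and 19.1% and 18.6%, at 24 h, so counts of 1 to 3 of 9 lie near that background. CTSZ, an exopeptidase and the most abundant member (chromosome 20, 58995185 to 59007247, minus strand), fell in all of these comparisons. It read 419, 426 and 406 CPM with DMSO at 8 h, 363, 358 and 362 CPM with AML874 and 321, 318 and 321 CPM with SEL120-34A. The libraries of 24 h read 353, 344 and 340 CPM with DMSO, 309, 313 and 311 CPM with AML874 and 286, 283 and 290.0 CPM with SEL120-34A. The groups stood in the same order at both times, DMSO above AML874 above SEL120-34A, without overlap. The log2 changes with AML874 were -0.21 ± 0.02 and -0.15 ± 0.02 (adjusted p = 2.35e-09 and 9.23e-07), and with SEL120-34A -0.38 ± 0.02 and -0.27 ± 0.02 (adjusted p = 9.38e-16 and 7.04e-12).

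CTSC also fell in these 4 comparisons, by 0.08 to 0.21 on the log2 scale. CTSS, the cathepsin that trims the invariant chain in antigen presentation, fell with AML874 at 8 h (log2 change -0.18 ± 0.03, adjusted p = 2.41e-06) and was called higher at 24 h (0.07 ± 0.03, adjusted p = 0.0477), where the libraries overlapped with DMSO and the call was lost with a replicate block (adjusted p = 0.0585) and from the RSEM counts (adjusted p = 0.0795). With SEL120-34A it did not pass at 8 h (-0.02 ± 0.03) and fell at 24 h (-0.12 ± 0.03, adjusted p = 0.00119). CTSA, a carboxypeptidase that also protects neuraminidase, was called higher in 3 comparisons, by 0.06 to 0.11 log2 units, and with library totals alone also with AML874 at 8 h (0.09, adjusted p = 0.00156). CTSB, an abundant cysteine protease, fell at 8 h with both compounds (-0.12 ± 0.03 and -0.07 ± 0.03; with library totals alone the second was -0.01, adjusted p = 0.831), and CTSH, an aminopeptidase, rose with AML874 at 24 h (0.11 ± 0.03).

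CTSD, the aspartic protease of the lysosome, fell with AML874 at 8 h by 0.18 ± 0.03 (adjusted p = 4.87e-05) and at 24 h by 0.11 ± 0.03 (adjusted p = 0.0112) on the log2 scale. Its deposited counts held 33.3% of the RSEM expected counts, those of HEXA 52.5% and those of NPC2 76.2%, and GENCODE 29 lists a protein-coding gene on the same strand overlapping CTSD and HEXA and a microRNA overlapping NPC2. From the RSEM counts, CTSD changed by -0.16 and -0.11 with AML874, and its change with SEL120-34A at 24 h, -0.08 and not called from the read counts (adjusted p = 0.0621), was -0.10 and called (adjusted p = 0.00272). CTSL changed by -0.22 ± 0.08 with AML874 at 8 h (adjusted p = 0.0202, and 0.0706 with library totals alone) and was not called in the other 3 comparisons with DMSO. LGMN had 2 to 17 counts per library and was not called in any of these 4.

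GAA stood out among the 5 glycosidases. It is the acid alpha-glucosidase that breaks down glycogen in the lysosome (chromosome 17, 80101556 to 80119879, plus strand), and it read 101, 105 and 111 CPM with DMSO at 8 h. The AML874 libraries read 134, 139 and 144 CPM and the SEL120-34A libraries 120, 117 and 122 CPM. At 24 h GAA read 114, 107 and 105 CPM with DMSO, 145, 138 and 142 CPM with AML874 and 129, 133 and 126 CPM with SEL120-34A. All treated libraries were above all DMSO libraries of their time, AML874 above SEL120-34A. The log2 changes were 0.39 ± 0.03 at each time with AML874 (adjusted p = 8.95e-11 and 8.55e-11), and 0.18 ± 0.03 and 0.25 ± 0.03 with SEL120-34A (adjusted p = 9.37e-05 and 5.52e-07).

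No other glycosidase was called higher against DMSO. NEU1, the lysosomal neuraminidase, fell with AML874 at 8 h (-0.23 ± 0.04, adjusted p = 0.000155) and with SEL120-34A at 24 h (-0.25 ± 0.04, adjusted p = 4.91e-05), while in the remaining comparisons it changed by -0.09 and -0.07 and was not called. GUSB, beta-glucuronidase, fell with both compounds at 8 h by 0.10 ± 0.03 and 0.16 ± 0.03 and with SEL120-34A at 24 h by 0.07 ± 0.03, the first of these lost with library totals alone (-0.05, adjusted p = 0.11). GLA, the alpha-galactosidase, fell with AML874 at 24 h (-0.08 ± 0.03, adjusted p = 0.0246). HEXA, the alpha subunit of beta-hexosaminidase, fell at 8 h with AML874 (-0.23 ± 0.03, adjusted p = 2.29e-07) and with SEL120-34A (-0.13 ± 0.03, adjusted p = 0.000743, a call lost with library totals alone at -0.06, adjusted p = 0.0966). From the RSEM counts these were -0.21 and -0.17, and a rise of 0.08 with AML874 at 24 h was called (adjusted p = 0.0236) that the read counts put at 0.07 (adjusted p = 0.058).

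NPC2 and PSAP, the soluble lipid-handling proteins, moved apart. NPC2 hands cholesterol to NPC1 (chromosome 14, 74476192 to 74494177, minus strand), and it read 36.2, 34.7 and 36.8 CPM with DMSO at 8 h, 37.1, 36.7 and 37.9 CPM with AML874 and 40.3, 41.8 and 41.5 CPM with SEL120-34A. By 24 h NPC2 stood at 36.7, 35.1 and 35.3 CPM with DMSO, 50.1, 48.8 and 48.2 CPM with AML874 and 44.1, 47.9 and 43.8 CPM with SEL120-34A. The 24 h libraries of both compounds lay above every DMSO library. The log2 change at 24 h was 0.46 ± 0.03 with AML874 (adjusted p = 2.89e-13) and 0.34 ± 0.03 with SEL120-34A (adjusted p = 7.00e-10), and the RSEM counts gave 0.45 and 0.31. At 8 h NPC2 rose with SEL120-34A (0.20 ± 0.04, adjusted p = 1.34e-05) and was not called with AML874 (0.05 ± 0.04, adjusted p = 0.247), though it was with library totals alone (0.10, adjusted p = 0.0215). PSAP, the precursor of the saposins that present lipids to their hydrolases, fell in all 4 comparisons by 0.09 to 0.18 on the log2 scale. Its call with SEL120-34A at 8 h was lost with library totals alone (-0.02, adjusted p = 0.504) and without the 3 libraries that stand apart (adjusted p = 0.0516).

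Of the 5 proton pump members, 0 were called higher and 3 lower with either compound at 8 h, and 0 higher and 4 lower with either at 24 h. Over all genes 19.9% and 22.6% were lower at 8 h with AML874 and SEL120-34A, and 23.7% and 18.6% at 24 h. ATP6V1A, the subunit that binds ATP in the cytoplasmic V1 part of the pump (chromosome 3, 113747019 to 113812056, plus strand), read 84.7, 82.7 and 83.2 CPM with DMSO at 24 h, 66.5, 67.1 and 66.0 CPM with AML874 and 64.4, 64.3 and 64.0 CPM with SEL120-34A. Both treated groups were tight and far below DMSO, with log2 changes of -0.33 ± 0.03 (adjusted p = 9.04e-12) and -0.38 ± 0.03 (adjusted p = 4.92e-13). At 8 h it read 85.3, 87.7 and 89.5 CPM with DMSO, 84.5, 85.5 and 82.2 CPM with AML874 and 79.1, 82.8 and 76.8 CPM with SEL120-34A. Only the SEL120-34A group was clear of DMSO then (-0.14 ± 0.03, adjusted p = 0.000142). The change with AML874 at 8 h, -0.06 ± 0.03, was not called (adjusted p = 0.104), but was without DMSO 8 h replicate 1 (-0.09, adjusted p = 0.0223) or AML874 8 h replicate 2 (adjusted p = 0.0382). Leaving out other single libraries also called it, with adjusted p = 0.0232 to 0.0455.

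ATP6V0D1, a subunit of the membrane-bound V0 part (chromosome 16, 67438014 to 67481237, minus strand), read 106, 107 and 104 CPM with DMSO at 8 h, 94.5, 94.5 and 96.5 CPM with AML874 and 98, 93.6 and 98.1 CPM with SEL120-34A. At 24 h it read 89.7, 87.3 and 86.0 CPM with DMSO, 73.4, 72.1 and 72.7 CPM with AML874 and 72.0, 68.5 and 72.6 CPM with SEL120-34A. No treated library overlapped with its DMSO group. The log2 changes were -0.15 ± 0.03 and -0.27 ± 0.03 with AML874 (adjusted p = 3.37e-05 and 5.22e-10) and -0.13 ± 0.03 and -0.30 ± 0.03 with SEL120-34A (adjusted p = 0.000211 and 6.48e-11). ATP6V1B2, the B subunit of V1, fell with AML874 (by 0.19 ± 0.03 at 8 h and 0.25 ± 0.03 at 24 h) and with SEL120-34A only at 24 h (by 0.14 ± 0.03). ATP6V1H fell in each comparison, by 0.09 to 0.11, but both 8 h calls were lost with library totals alone (-0.06, adjusted p = 0.145, and -0.04, adjusted p = 0.276), where ATP6V1B2 was called higher with SEL120-34A at 8 h (0.13, adjusted p = 0.000244). The accessory subunit ATP6AP1 was called in none.

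Other pump subunits were taken from a wider list. Of the 13 tested that had at least 80% of their RSEM counts, 3 were higher and 2 lower with AML874 at 8 h and 5 higher and 0 lower with SEL120-34A, against 2 higher and 7 lower, and 1 higher and 8 lower, at 24 h. Over all genes 19.7% were higher and 19.9% lower with AML874 at 8 h, and 22.4% and 22.6% with SEL120-34A. At 24 h these shares were 23.1% and 23.7%, and 19.1% and 18.6%. The AML874 counts at 8 h lie near that background. TCIRG1, the a3 subunit, fell by 0.45 ± 0.06 and 0.39 ± 0.06 at 24 h under AML874 and SEL120-34A. ATP6V1C1 changed by -0.30 ± 0.03 and -0.24 ± 0.03, and ATP6V0B by -0.32 ± 0.03 and -0.20 ± 0.03. ATP6V0A2, the a2 subunit, rose in all 4 comparisons, by 0.14 to 0.37 log2 units.

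Among the 6 autophagy members GABARAPL1 changed most. It encodes a ubiquitin-like protein that is joined to the autophagosome membrane (chromosome 12, 10212458 to 10223130, plus strand), and it read 7.33, 7.20 and 7.96 CPM with DMSO at 8 h, 5.22, 5.32 and 5.54 CPM with AML874 and 5.71, 6.30 and 6.10 CPM with SEL120-34A. At 24 h it read 7.73, 7.30 and 7.03 CPM with DMSO, 4.24, 3.76 and 4.08 CPM with AML874 and 4.60, 4.81 and 4.95 CPM with SEL120-34A. Each treated library was below each DMSO library. The log2 changes were -0.48 ± 0.07 and -0.87 ± 0.07 with AML874 (adjusted p = 3.26e-07 and 8.26e-13) and -0.31 ± 0.07 and -0.62 ± 0.07 with SEL120-34A (adjusted p = 0.000206 and 2.77e-09).

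WIPI1, a phosphoinositide-binding protein of the early autophagosome (chromosome 17, 68420948 to 68457513, minus strand), rose with SEL120-34A at 8 h only among the 4 comparisons. It read 9.96, 9.45 and 9.76 CPM with DMSO, 9.69, 9.66 and 9.27 CPM with AML874 and 11.5, 12.3 and 11.5 CPM with SEL120-34A, a log2 change of 0.27 ± 0.06 (adjusted p = 0.000659) for the last. At 24 h it read 9.87, 8.72 and 7.97 CPM with DMSO, 8.27, 9.26 and 8.65 CPM with AML874 and 7.88, 9.22 and 8.24 CPM with SEL120-34A. These groups overlapped, and the SEL120-34A effect was lower at 24 h than at 8 h by -0.35 ± 0.09 (adjusted p = 0.00427).

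ULK1, the kinase that starts autophagosome formation, fell with AML874 at 8 h (-0.13 ± 0.03, adjusted p = 0.00153) and rose with SEL120-34A (0.18 ± 0.03, adjusted p = 2.07e-05). MAP1LC3B, the LC3 protein used to mark autophagosomes, did likewise (-0.10 ± 0.03, adjusted p = 0.00723, or 0.156 with library totals alone, and 0.13 ± 0.03, adjusted p = 0.000319), and so did GABARAPL2 (-0.12 ± 0.03 and 0.09 ± 0.03, the second at 0.05, adjusted p = 0.301, without the 3 libraries that stand apart). At 24 h ULK1 rose again under SEL120-34A (0.16 ± 0.03, adjusted p = 8.15e-05). SQSTM1, the cargo receptor p62, fell with both at 8 h (-0.23 ± 0.03 and -0.16 ± 0.03), rose by 0.09 ± 0.03 with SEL120-34A at 24 h (adjusted p = 0.00925) and was at 0.04 ± 0.03 with AML874 (adjusted p = 0.256).

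**Figure D3:**
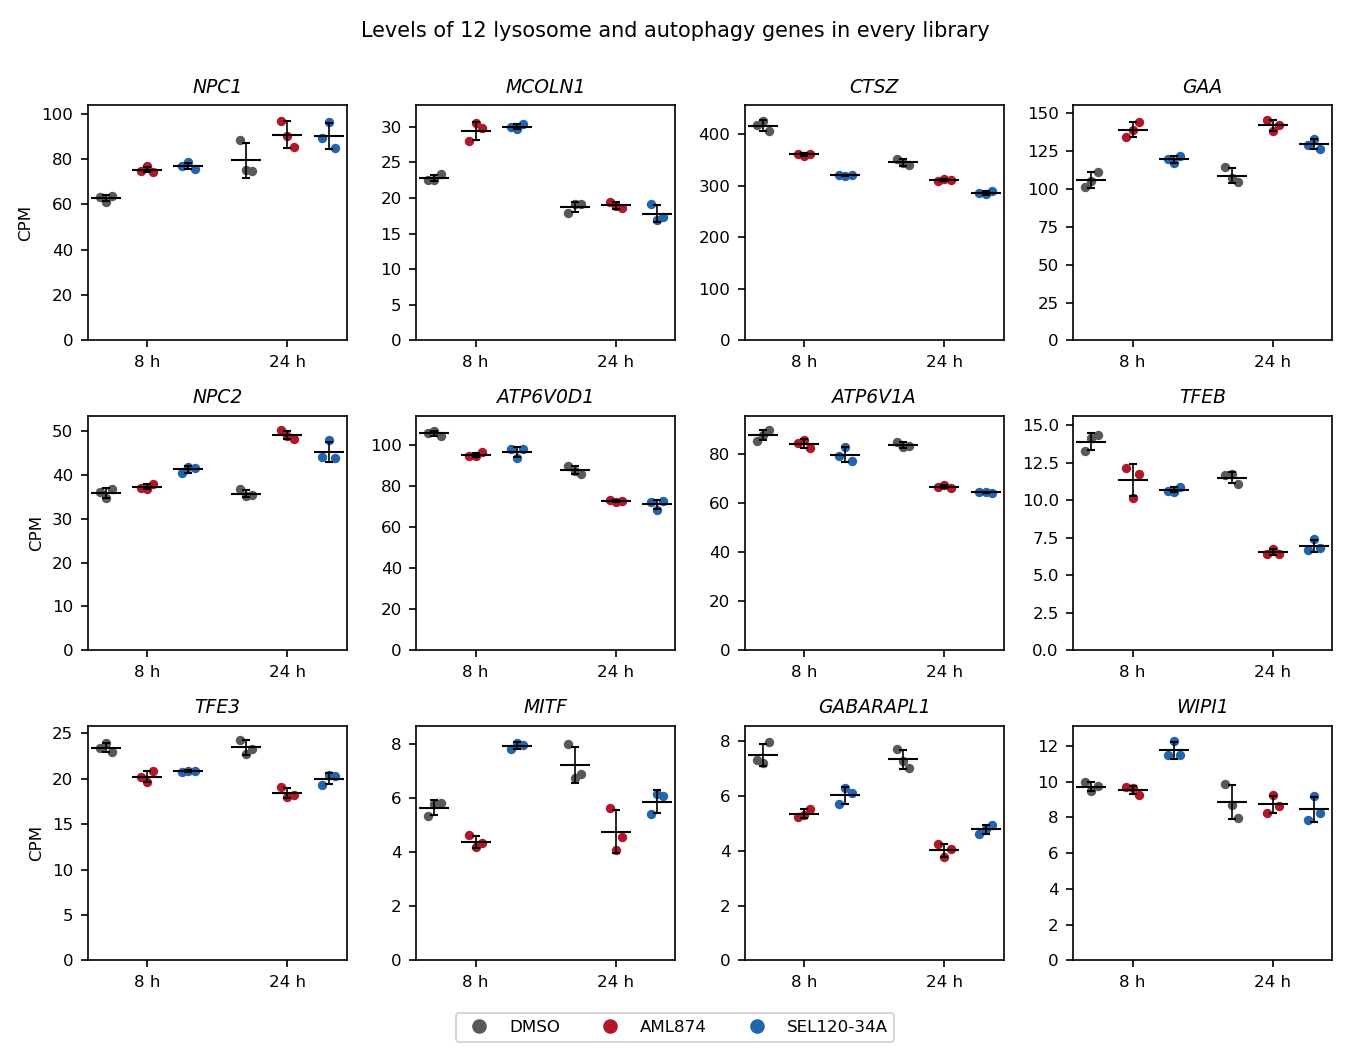
CPM of the 12 members described library by library, 3 points per group with the mean as a bar and the SD as whiskers, 8 h groups left and 24 h groups right in each panel, and each vertical axis from 0. MITF at 8 h shows SEL120-34A (7.80 to 8.03 CPM) above and AML874 (4.19 to 4.62 CPM) below DMSO, and TFEB shows both compounds at 6.44 to 7.39 CPM at 24 h against 11.1 to 11.7 CPM with DMSO.

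AML874 and SEL120-34A were then set against each other, 1 pair of compounds at 2 times, with p-values adjusted over all genes at each time. At 8 h, 4 members were higher with AML874 than with SEL120-34A and 12 lower, beside 16.0% and 15.2% of all genes. At 24 h, 7 were higher and 6 lower, beside 8.00% and 11.6% of all genes. The 24 h counts rested on single libraries. Without AML874 24 h replicate 1, 4 were higher, and without AML874 24 h replicate 2 or 3 or SEL120-34A 24 h replicate 3, 3 were lower.

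Among the members called, MITF differed most, by -0.86 ± 0.09 at 8 h (adjusted p = 2.64e-09) and by -0.30 ± 0.09 at 24 h (adjusted p = 0.0135), where the libraries overlapped. Its 24 h call was lost without AML874 24 h replicate 2 (adjusted p = 0.142), AML874 24 h replicate 3 (0.0628) or SEL120-34A 24 h replicate 3 (0.0671), without the 3 libraries that stand apart (0.0703) and when the model held only the groups compared (0.0779). The autophagy members were lower with AML874 at 8 h for ULK1 (-0.31 ± 0.03, adjusted p = 3.12e-09), WIPI1 (-0.30 ± 0.06, adjusted p = 0.000393), MAP1LC3B (-0.23 ± 0.03, adjusted p = 1.33e-07) and GABARAPL2 (-0.21 ± 0.03, adjusted p = 2.02e-06), and 0 of the 6 were higher. GABARAPL1 missed the threshold at 8 h (-0.17 ± 0.07, adjusted p = 0.0527, and 0.0281 to 0.0496 under the alternatives that called it) and was lower at 24 h (-0.25 ± 0.07, adjusted p = 0.011). The latter call was lost without AML874 24 h replicate 2 (adjusted p = 0.0799) or SEL120-34A 24 h replicate 3 (0.0599). ULK1 and MAP1LC3B were also lower with AML874 at 24 h. In the fit with a replicate block these differences were -0.14 ± 0.03 (adjusted p = 0.00268) and -0.11 ± 0.03 (adjusted p = 0.00777).

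GAA and CTSZ were higher with AML874 at both times, GAA by 0.22 ± 0.03 and 0.13 ± 0.03 and CTSZ by 0.17 ± 0.02 and 0.12 ± 0.02. The pump subunit ATP6V1B2 was lower at both times, at -0.25 ± 0.03 and -0.11 ± 0.03 in the fit with a replicate block. In that fit CTSD (-0.14 ± 0.03) and PSAP (-0.09 ± 0.03) were called lower at 8 h only, and CTSH was higher at 24 h (0.11 ± 0.03). LAMP1 (0.12 ± 0.03) and ATP6V1A (0.08 ± 0.03, adjusted p = 0.0316) were higher at 8 h only among the 2 times, and the call of ATP6V1A was lost without AML874 replicate 1 or 2 or SEL120-34A replicate 1 or 3 (adjusted p = 0.111 to 0.249). TFE3 was lower at 24 h (-0.12 ± 0.04, adjusted p = 0.0319), a call lost without AML874 replicate 2 or 3 or SEL120-34A replicate 2 or 3 (adjusted p = 0.0938 to 0.133). CTSS, NEU1 and HEXA were lower with AML874 at 8 h (-0.16, -0.14 and -0.10) and higher at 24 h (0.18, 0.18 and 0.08), although from the RSEM counts HEXA did not pass at 8 h (-0.04, adjusted p = 0.347), its 24 h call was lost with a replicate block (adjusted p = 0.0504), and the 8 h calls of HEXA and NEU1 were lost without the 3 libraries that stand apart (adjusted p = 0.067 and 0.0548). NPC2 followed the same pattern, at -0.15 ± 0.03 and 0.12 ± 0.03. Its 24 h call was lost without AML874 24 h replicate 1 (adjusted p = 0.0714), SEL120-34A 24 h replicate 1 (0.0802) or SEL120-34A 24 h replicate 3 (0.106).

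For several members no difference between the compounds was found, with intervals that bound it. MCOLN1 differed by -0.03 at 8 h (95% interval -0.11 to 0.06), NPC1 by -0.03 (-0.17 to 0.11), TFEB by 0.09 (-0.03 to 0.21; called without AML874 replicate 2, adjusted p = 0.042) and ATP6V0D1 by -0.02 (-0.08 to 0.04). At 24 h TFEB differed by -0.08 (-0.21 to 0.05) and ATP6V1A by 0.05 (-0.01 to 0.11). These intervals do not show that the compounds act alike.

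**Figure D4:**
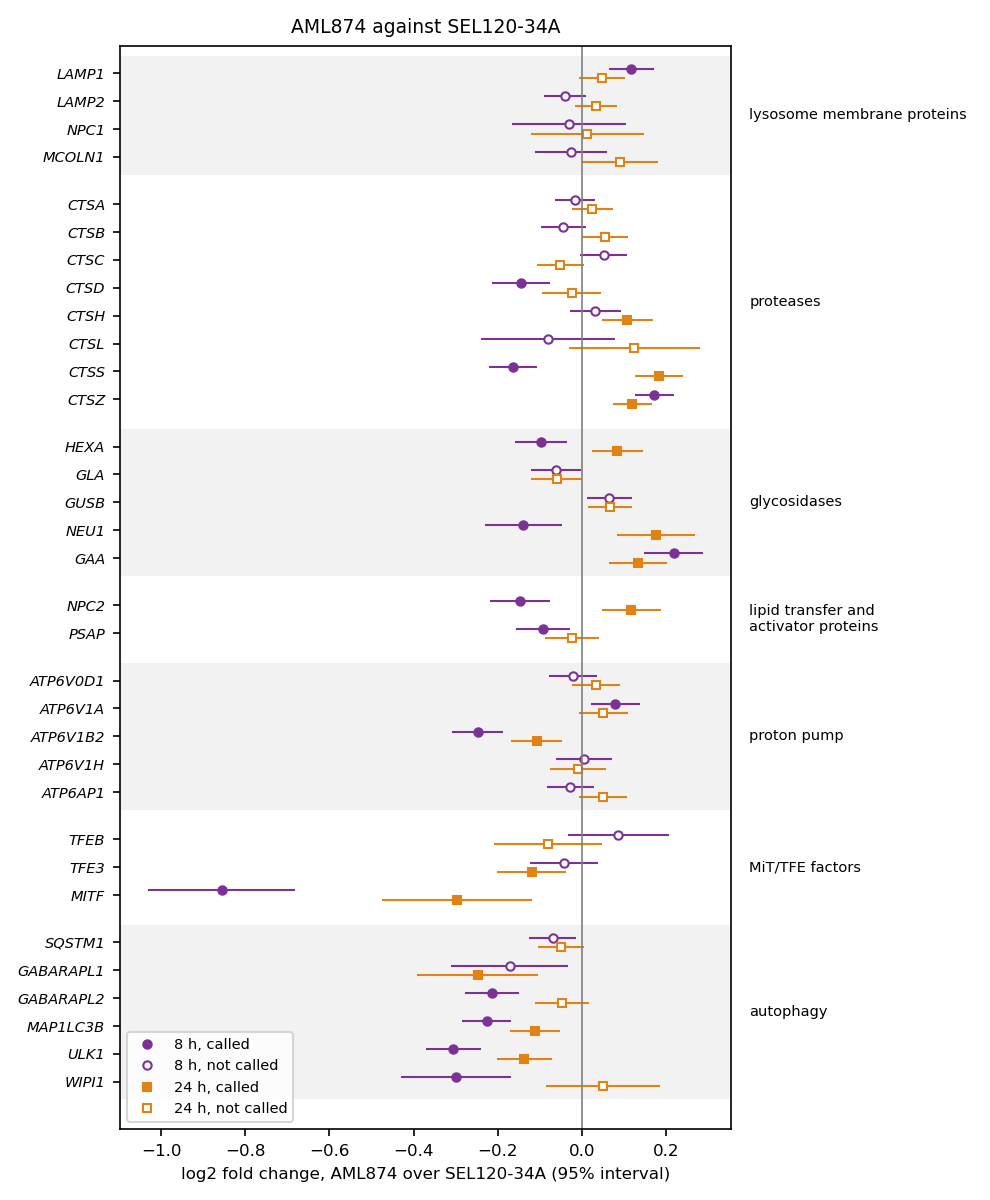
Log2 fold change of AML874 over SEL120-34A for 33 members at 8 h (circles) and 24 h (squares), filled where called, with 95% intervals. MITF (-0.86), the autophagy members ULK1, WIPI1, MAP1LC3B and GABARAPL2 (-0.31 to -0.21) and the pump subunit ATP6V1B2 lie furthest left of 0 at 8 h. GAA (0.22) lies furthest to the right.

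Time in DMSO alone moved the members as well. From 8 h to 24 h, 4 were higher and 18 lower, beside 19.8% and 22.7% of all genes, and the median was -0.11 over the members and 0.0063 over all genes. With library totals alone the counts were 6 and 16, and the share of higher calls over all genes went from 46.7% to 57.1%. Without the 3 libraries that stand apart, 7 members were higher and 17 lower. Of the 9 proteases, 0 were higher and 8 lower.

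CTSD read 62.9, 65.3 and 64.3 CPM with DMSO at 8 h and 42.6, 42.1 and 38.9 CPM at 24 h. The times did not overlap, with a log2 change of -0.64 ± 0.03 (adjusted p = 9.60e-17) and -0.56 from the RSEM counts. GLA fell by 0.36 ± 0.03, CTSB by 0.33 ± 0.03, CTSA by 0.32 ± 0.02 and CTSS by 0.29 ± 0.03 on the log2 scale. MCOLN1, TFEB, CTSZ, ATP6V0D1 and LAMP1 also fell, at -0.29, -0.27, -0.27, -0.27 and -0.25 in the fit with a replicate block. Those higher at 24 h were MITF (0.35 ± 0.08), NPC1 (0.34 ± 0.06), HEXA (0.16 ± 0.03) and ATP6V1B2 (0.12 ± 0.03). LGMN had 10, 16 and 12 counts at 8 h and 2, 7 and 4 at 24 h, close to the limit of 3 counts, and was called lower. GAA (0.04, adjusted p = 0.413) was called only without DMSO 8 h replicate 3 (0.09, adjusted p = 0.0386) or the 3 libraries that stand apart (adjusted p = 0.0252), and WIPI1 (-0.13, adjusted p = 0.101) only without DMSO 24 h replicate 1 (-0.22, adjusted p = 0.00865). The summed level of the 12 hypoxia response genes was 328 to 475 TPM with DMSO at 8 h and 493 to 593 TPM at 24 h, and its part in these changes was not tested.

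The effect of each compound was compared between the times by an interaction in the same model. With AML874, 7 members had a higher and 5 a lower effect at 24 h, beside 11.1% and 12.5% of all genes. With SEL120-34A the counts were 6 and 8, beside 14.2% and 13.0%. With library totals alone they were 6 and 7, and 1 and 14, while the share of higher calls among all called genes went from 47.1% to 30.7% and from 52.2% to 29.1%. TFEB, GABARAPL1, ATP6V1A, ATP6V0D1 and MCOLN1 had lower effects, with sign, at 24 h with both compounds, and NPC2, SQSTM1 and HEXA higher ones. TFEB, GABARAPL1, ATP6V1A and ATP6V0D1 were further below DMSO at 24 h than at 8 h, while MCOLN1 had risen at 8 h and was not called at 24 h. NPC2 was further above DMSO at 24 h, while SQSTM1 and HEXA had fallen at 8 h and were not called lower at 24 h. The higher count with AML874 was 11 without DMSO 24 h replicate 1. The difference for ATP6V0D1 with AML874 (-0.12 ± 0.04, adjusted p = 0.0244) was lost without DMSO replicate 1 or 3 or AML874 replicate 3 of 8 h, or DMSO replicate 1 or 2 of 24 h (adjusted p = 0.0527 to 0.085). That of MITF (-0.23, adjusted p = 0.195) was called only without AML874 24 h replicate 1 (-0.37, adjusted p = 0.0151). The difference for NPC2 with SEL120-34A (0.14 ± 0.05, adjusted p = 0.0316) was lost with library totals alone (0.07, adjusted p = 0.338) from the RSEM counts (0.07, adjusted p = 0.281), without the 3 libraries that stand apart (0.10, adjusted p = 0.17) and without single libraries (adjusted p up to 0.126, without SEL120-34A 24 h replicate 2). With library totals alone the SEL120-34A differences of CTSZ, CTSC, LAMP1 and HEXA were also lost (0.04, 0.05, 0.07 and 0.04, adjusted p = 0.393, 0.321, 0.117 and 0.545), as was that of ULK1 with AML874 (0.11, adjusted p = 0.0812). That of HEXA with SEL120-34A was lost with a replicate block too (adjusted p = 0.0506).

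The other hydrolases of the lysosome were taken from the wider list, where 36 tested genes had at least 80% of their RSEM counts. With AML874 at 24 h, 21 were called higher and 4 lower, and with SEL120-34A 16 higher and 7 lower, while at 8 h the counts were 12 and 8, and 15 and 9. Beside these and the counts of the lists that follow stand, over all genes, 23.1% higher and 23.7% lower with AML874 and 19.1% and 18.6% with SEL120-34A at 24 h, and 19.7% and 19.9%, and 22.4% and 22.6%, at 8 h. CTSO, a cysteine protease outside the member list, rose by 0.76 ± 0.06 with AML874 at 8 h, 1.296 ± 0.06 at 24 h, and 0.86 ± 0.06 and 0.90 ± 0.06 with SEL120-34A. SIAE, a sialic acid acetylesterase, rose by 0.59 ± 0.03, 1.04 ± 0.03, 0.23 ± 0.03 and 0.73 ± 0.03 in the same order. CTSF (cathepsin F) rose by 0.49 ± 0.06 at 8 h and 0.68 ± 0.05 at 24 h in SEL120-34A cells, and by 0.43 ± 0.05 with AML874 at 24 h. SMPD1, the acid sphingomyelinase, fell at 24 h by 0.47 ± 0.06 and 0.51 ± 0.06.

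Of the 18 other lysosome membrane proteins, 7 were higher and 4 lower with AML874 at 8 h, 10 and 4 with SEL120-34A, 8 and 3 with AML874 at 24 h and 7 and 3 with SEL120-34A. TPCN1, a cation channel of endosomes and lysosomes, rose at 8 h, by 0.85 ± 0.04 under AML874 and 0.43 ± 0.04 under SEL120-34A. CLCN7, the chloride-proton exchanger, rose by 0.34 ± 0.02 with SEL120-34A at 8 h. CD63, a tetraspanin of late endosomes, fell at 24 h by 0.27 ± 0.03 with each compound.

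Among other autophagy genes, those of initiation and nucleation (17 tested) had 2 higher and 8 lower with AML874 at 8 h, against 6 and 5 with SEL120-34A. At 24 h the counts were 6 and 7, and 6 and 2. BECN1 (beclin 1, a subunit of the lipid kinase complex of autophagy) rose in all 4 comparisons, by 0.21 to 0.39 log2 units, and ATG13, a partner of ULK1, rose by 0.23 ± 0.03 at 8 h and 0.35 ± 0.03 at 24 h under SEL120-34A. Autophagy receptors (12 tested) had 2 higher and 6 lower with AML874 at 8 h, 2 and 4 with SEL120-34A at 8 h, and 1 and 4, and 2 and 4, at 24 h. WDFY3, a large scaffold of selective autophagy, fell in all 4, by 0.25 to 0.40 on the log2 scale. Conjugation genes (11 tested) had 4 higher and 2 lower with either compound at 8 h, and at 24 h 3 and 5 with AML874 and 3 and 3 with SEL120-34A.

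**Figure D5:**
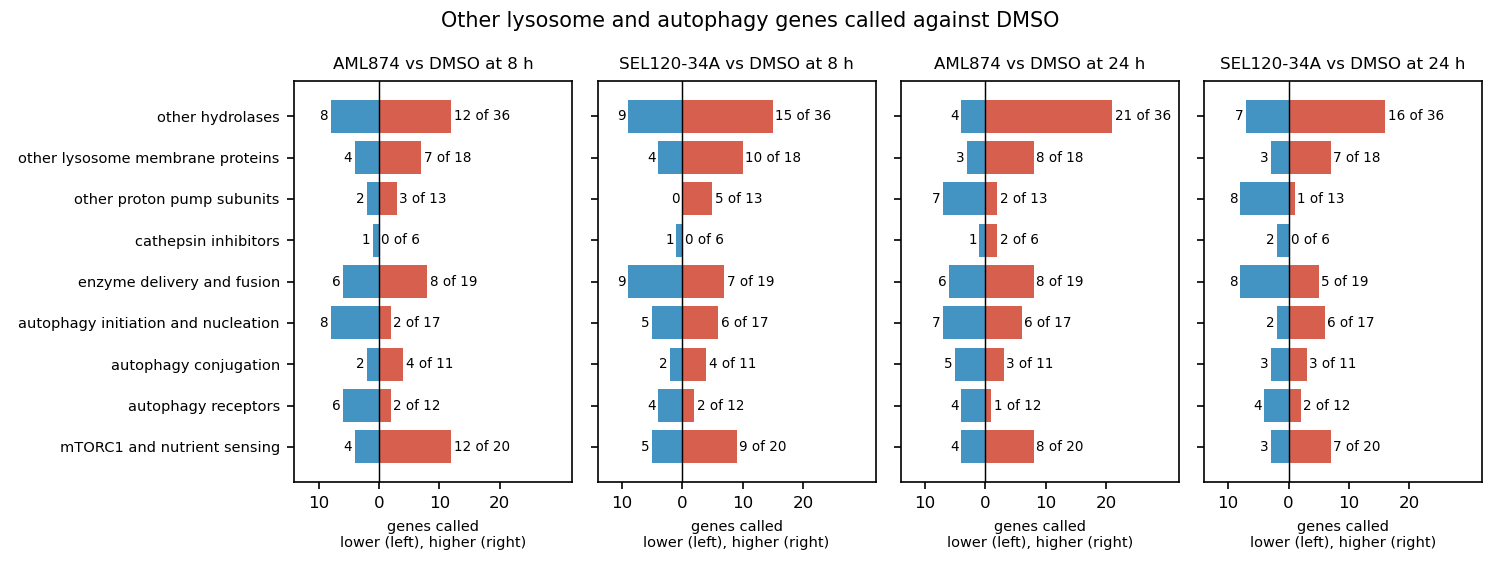
Number of genes called higher (right, red) and lower (left, blue) against DMSO in 9 lists of other lysosome and autophagy genes, 1 panel per comparison, counting genes with at least 80% of their RSEM counts, with the number tested beside each bar. Other hydrolases show 21 higher and 4 lower with AML874 at 24 h, and with SEL120-34A the other proton pump subunits show 5 higher and 0 lower at 8 h and 1 higher and 8 lower at 24 h.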

How the data were processed

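Polyadenylated RNA of OCI-AML1 cells was sequenced in 18 libraries, 3 in each of 6 groups set by the labels. Per the submitters' processing notes the tools were STAR 2.7.1a and RSEM 1.3.2 with the build GRCh38; the annotation release is not given in the sources used here. The authors deposited whole read counts per gene in 3 strand columns, of which the reverse column was used, and RSEM tables with expected counts and TPM, which is scaled for length and depth. Reads that overlap 2 genes on a strand are left out of such read counts. Lines that name no gene held 21.9 to 25.5% of the reads and were left out. The libraries held 98975944 to 142496541 counts in genes.

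Genes were filtered with filterByExpr (20920 left), scaled with TMM and fitted in 1 model of 6 groups by the robust quasi-likelihood test of edgeR 4.0.16 in R 4.3.3, with adjustment over all genes; intervals are 95%. CPM values use the TMM factors. Expected counts were rounded for an alternative fit, and TPM served only to rank levels and describe markers. Positions come from GENCODE 29 and promoters from RefSeq. Tables were made in Python 3.11.15 with numpy 2.4.6 and pandas 2.3.3, figures with matplotlib 3.10.9. Simulated data were used to test the fit.

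Values per library are given for members called against DMSO with a fold change of at least 1.2 and at least 1 CPM; from each wider list up to 3 genes each way per comparison, by smallest p among genes whose libraries do not overlap, could be named. GPNMB, CTSD and LGMN library values were added after the values were seen. The members and lists were chosen with earlier results of these data known. Of 260 listed genes 259 matched; TMEM55A did not. Alternatives were other scalings (median-of-ratios factors and library totals), DESeq2 1.42.0, limma-voom (limma 3.58.1), other filters, a replicate block, fitting only the compared groups, unstranded and RSEM counts, and leaving out libraries. Replicates of a group differed by more than sampling noise in every pair (chi-square per gene 3.10 to 12.4).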

Additional observations from a re-analysis of the deposited data

Results flagged for a closer look

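These results are listed because the effect of a compound at 24 h differed from its effect at 8 h by the interaction test in edgeR (adjusted p under 0.05). Values are the effect at 24 h minus that at 8 h, on the log2 scale.

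With AML874 the effect was higher at 24 h for NPC2 (0.40), HEXA (0.30), SQSTM1 (0.27), CTSS (0.25), CTSB (0.17), CTSH (0.15) and ULK1 (0.15). It was lower for the transcription factor TFEB (-0.52), the autophagosome protein GABARAPL1 (-0.38), the calcium channel MCOLN1 (-0.35) and the pump subunits ATP6V1A (-0.27) and ATP6V0D1 (-0.12).

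With SEL120-34A it was higher for SQSTM1 (0.25), LAMP1 (0.14), NPC2 (0.14), CTSC (0.13), HEXA (0.11) and CTSZ (0.11). Of these, only SQSTM1 was called with library totals alone. It was lower for MITF (-0.79), MCOLN1 (-0.47), TFEB (-0.35), WIPI1 (-0.35), GABARAPL1 (-0.31) and the pump subunits ATP6V1A (-0.24), ATP6V1B2 (-0.20) and ATP6V0D1 (-0.17). MITF and WIPI1 had risen at 8 h, and at 24 h MITF was below DMSO while WIPI1 overlapped with it.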

How the results depend on the processing

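The 12 members described library by library were followed over 9 comparisons and 29 alternatives. Of these values 3037 kept their side of the threshold, 60 lost the call and 35 gained one. Among values called in the main fit or in the alternative, 0 reversed in direction. Direction was not compared where neither fit called the value. The counts that moved by over 1.5 times were these, and the cause was not tested. With library totals alone, 6 members were higher with AML874 at 8 h and 9 lower with SEL120-34A at 8 h, and the change of the SEL120-34A effect between times was higher for 1 and lower for 14. With a filter of 1 CPM in 3 libraries, the change of the AML874 effect was higher for 14, and leaving out 1 library this count ranged from 7 to 11. That filter also changes the set of genes tested and with it the adjustment. Leaving out 1 library at a time, 4 to 9 members were higher with AML874 at 24 h, and 4 to 8 were higher and 3 to 6 lower with AML874 than with SEL120-34A at 24 h. Without the 3 libraries that stand apart, an alternative chosen after seeing the data, 7 members were higher with DMSO at 24 h than at 8 h. In that setting the counts higher and lower against DMSO were 3 and 22 (AML874) and 9 and 15 (SEL120-34A) at 8 h, and 8 and 14, and 5 and 17, at 24 h. The shares of all genes called under the filter or without libraries are not given here, so these counts are not read as results about the members. A replicate block changed 0 of 108 calls of these 12 members. Among the other members it ended the calls of CTSS with AML874 at 24 h (adjusted p = 0.0585), of HEXA between the compounds at 24 h (0.0504) and of HEXA between times with SEL120-34A (0.0506). It added calls for CTSL with SEL120-34A at 24 h (0.0471), NEU1 with time in DMSO (0.0381) and NEU1 between times with SEL120-34A (0.0452). Libraries with the same number did not deviate together in a uniform way (correlations from -0.34 to 0.35 over 45 pairs), so the number was not treated as a pairing. Some pairs of groups were positive at every number, such as SEL120-34A at 8 h and 24 h (0.14, 0.35 and 0.08) and DMSO with AML874 at 24 h (0.24, 0.07 and 0.13). Others were negative at every number, such as DMSO with SEL120-34A at 24 h (-0.08, -0.23 and -0.04). Depth limits only LGMN, at 2 to 17 counts per library.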

Other observations

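Genes of mTORC1 and nutrient sensing, with 20 tested at 80% or more of their RSEM counts, had 12 called higher and 4 lower with AML874 at 8 h, 9 and 5 with SEL120-34A at 8 h, 8 and 4 with AML874 at 24 h and 7 and 3 with SEL120-34A at 24 h. Beside these counts and those of the next paragraph, the shares over all genes at 8 h were 19.7% and 19.9% (AML874), and 22.4% and 22.6% (SEL120-34A). At 24 h they were 23.1% and 23.7%, and 19.1% and 18.6%. DEPTOR, an inhibitory partner of mTOR, rose at 24 h by 0.78 ± 0.06 (SE, log2 scale) with AML874 and 0.82 ± 0.06 with SEL120-34A, and at 8 h by 0.49 ± 0.07 with SEL120-34A. MTOR itself rose by 0.23 ± 0.03 at 8 h and 0.22 ± 0.03 at 24 h under AML874, and by 0.20 ± 0.03 under SEL120-34A at 24 h only. RHEB, the small GTPase that activates mTORC1, fell in all 4 comparisons with DMSO, by 0.12 to 0.26. TFEC, the MiT/TFE gene outside the members, rose by 0.34 ± 0.04 with AML874 at 8 h, where TFEB, TFE3 and MITF fell.

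Genes of enzyme delivery and fusion (19 tested) had 8 higher and 6 lower, and 7 and 9, at 8 h with AML874 and SEL120-34A, and 8 and 6, and 5 and 8, at 24 h. SORT1, the sorting receptor sortilin, fell in all 4 comparisons, by 0.37 ± 0.03 and 0.60 ± 0.03 with AML874 and 0.24 ± 0.03 and 0.42 ± 0.03 with SEL120-34A at 8 h and 24 h. M6PR, a mannose 6-phosphate receptor that carries enzymes to the lysosome, fell at 24 h by 0.29 ± 0.03 and 0.27 ± 0.03. Of 6 cathepsin inhibitors, 2 were higher and 1 lower with AML874 at 24 h, and 0 higher and 2 lower with SEL120-34A; CST3, or cystatin C, fell by 0.23 ± 0.05 and 0.17 ± 0.05 at that time.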
